A study of Homo sapiens with 27 samples.

Results

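The enzymes that copy, place and remove DNA methylation and Polycomb marks were followed in U937 cells by microarray. The set holds 10 of the 15207 genes that the array names: DNMT1, DNMT3A, DNMT3B, UHRF1, HELLS, EZH2, EED, SUZ12, TET2 and KDM6B. Every probe that the platform's probe-to-gene table assigns to 1 of them was taken, 13 probes of 30968 on the array. TET2 and KDM6B, with 4 of these probes, are listed there only under their older symbols KIAA1546 and JMJD3. DNMT3A, TET2 and KDM6B have 2 probes each and the other 7 genes have 1.

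There were 3 groups, each cultured for 48 h. The first received 10 µM PBD150, an inhibitor of the enzyme glutaminyl cyclase, 2 h ahead of 4 µg/ml lipopolysaccharide (LPS, a component of the bacterial outer membrane that activates Toll-like receptor 4). The second received LPS alone at the same dose, and the third was left untreated. No group received PBD150 without LPS. U937 is a monocyte-like human line derived from a histiocytic lymphoma. Although described as macrophages in the labels, the cells are not said to have received a differentiating agent. Each group had 3 biological replicates, called cultures here, with 3 technical arrays each, 27 arrays in all. The labels do not say what made the replicates separate, so the p-values measure the spread between these samples, which may be technical in part.

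Methylation of cytosine in CpG pairs is copied after DNA replication by DNMT1, which UHRF1 brings to the half-methylated DNA, and HELLS opens chromatin for it. DNMT3A and DNMT3B place new methylation, and TET2 starts its removal by oxidising the methyl group. Polycomb repressive complex 2 (PRC2), built on EZH2, EED and SUZ12, methylates a lysine of histone H3, a mark of silent developmental genes, and KDM6B takes that mark off. In mouse macrophages KDM6B is known as a gene that inflammatory signals induce. Messenger RNA was measured here, not methylation of DNA or of histones.

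In the promoter windows searched, the 5 genes called lower with LPS carried a letter pattern that the other 5 members lacked. Among those others, EED and TET2 had too little signal for a fall to be seen. Those stretches are printed first. E2F factors, which drive many genes of DNA replication, bind sites of the type TTTCGCGC, TTTGGCGC, TTTCCCGC and TTTGGCGG. These 4 motifs were searched on both strands of the RefSeq promoter windows of GRCh38.p14, from 250 bases before to 50 bases after each listed start. All 10 genes had windows, 20 in all, but these do not cover every start. The 1 DNMT3B window (chr20:32779602-32779901, 3 CpG pairs) lies away from the first base of that gene, at 32762385. The UHRF1 windows also leave out the first base of the gene, at 4903080. Those stretches were not searched. Capitals mark the motif, as written above or as its reverse complement, and each stretch is printed on the gene's own strand, from 5′ to 3′.
DNMT1, chr19:10194948-10194991, minus strand: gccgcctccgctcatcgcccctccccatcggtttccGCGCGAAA
UHRF1, first window, chr19:4909451-4909500, plus strand: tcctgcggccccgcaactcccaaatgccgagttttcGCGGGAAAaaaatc
UHRF1, second window, chr19:4909948-4910027, plus strand: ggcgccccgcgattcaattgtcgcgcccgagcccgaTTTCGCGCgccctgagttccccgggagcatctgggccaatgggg
HELLS, chr10:94545676-94545787, plus strand: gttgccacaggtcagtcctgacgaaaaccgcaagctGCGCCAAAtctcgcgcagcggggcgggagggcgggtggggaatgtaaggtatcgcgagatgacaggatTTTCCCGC
EZH2, chr7:148884283-148884326, minus strand: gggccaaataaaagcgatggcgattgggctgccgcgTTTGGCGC
SUZ12, chr17:31936782-31936861, plus strand: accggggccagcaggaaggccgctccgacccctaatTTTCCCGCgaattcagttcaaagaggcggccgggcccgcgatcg

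At least 1 of the 4 motifs stood in 6 of the 8 windows of DNMT1, UHRF1, HELLS, EZH2 and SUZ12, and in 0 of the 12 windows of DNMT3A, DNMT3B, EED, TET2 and KDM6B. Across all 35116 RefSeq windows, 3.35% held one, among the 14454 windows with at least 20 CpG pairs 5.78% did, and of 27305 genes 4.05% had one in any window. A second kind of motif of dividing cells is the cell cycle homology region (TTTGAA or TTCGAA). Of the 20 windows it was found in 1 each of DNMT3A, SUZ12 and TET2. Over all RefSeq promoters 16.4% of windows and 19.5% of genes had it. Of the motifs of NF-kB, a factor of inflammation, GGAATTTCC and the longer site of the immunoglobulin kappa enhancer were in no window of the 10 genes, against 0.652% of all windows. A match of letters is a description and shows no binding. The genes were split by their response, and EZH2 and SUZ12 were near the threshold of that call. EED and TET2 stand among the other members although their signal was too low to show a fall. Some windows of a gene also overlap, so these counts were given no test.

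Median intensities were 41.5 to 100.3 units. Per array, 69.0% to 77.8% of probes lay above a noise limit set at 3 times the root mean square of the values below 0 (12.9 to 18.7 units). Levels below are log2 intensities after quantile normalisation, averaged over the 3 arrays of a culture. They compare the groups within a probe, not one probe with another. Untreated cultures were more alike than the treated ones, with a median SD of 0.373 with PBD150 plus LPS, 0.365 with LPS and 0.206 untreated. The treatment was visible in marker genes. All 11 measured monocyte and macrophage markers were above noise on every array, and their summed intensity was 187000 to 195000 with PBD150 plus LPS, 173000 to 178000 with LPS and 11700 to 12500 untreated. In each comparison with untreated 8 of them rose, 0 fell and 3 did not pass. In untreated cells the sums of granulocyte and of T or NK cell markers, given below, were larger, so these sums do not settle identity. LPS replicate 1 stood apart from LPS replicates 2 and 3 in several members. The LPS differences of DNMT1, UHRF1, HELLS and SUZ12 are given with and without it.

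The first question was what LPS, alone or after PBD150, did to the maintenance machinery of DNA methylation. All 3 of its members fell with both treatments, by more than 4-fold, and they had the largest decreases of the set. DNMT1, the maintenance methyltransferase (probe PH_hs_0023014), was at 7.09, 7.36 and 8.02 in PBD150 plus LPS cultures, at 8.63, 7.39 and 7.48 in LPS cultures and at 9.95, 10.03 and 9.96 in untreated cultures. Every treated culture was below every untreated one, and LPS replicate 1 was the highest of the treated cultures. Relative to untreated, DNMT1 was 5.62-fold lower with PBD150 plus LPS (log2 difference -2.49 ± 0.37 SE, limma adjusted p = 0.00148) and 4.42-fold lower with LPS (-2.14 ± 0.37, adjusted p = 0.00361). In RNA from whole cultures, fewer cells of a type and less RNA per cell cannot be told apart, here and below.

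UHRF1, the reader that guides DNMT1 (PH_hs_0027206), was at 8.28, 7.87 and 8.33 in PBD150 plus LPS cultures, 9.19, 8.75 and 8.46 in LPS cultures and 11.22, 11.61 and 11.85 in untreated cultures. The 3 groups did not overlap, with PBD150 plus LPS lowest and untreated highest. The fall was 10.6-fold with PBD150 plus LPS (log2 difference -3.40 ± 0.26, limma adjusted p = 6.76e-05) and 6.79-fold with LPS (-2.76 ± 0.26, adjusted p = 0.000208). In the deposited intensities UHRF1 had 353, 239 and 344 units with PBD150 plus LPS, 680, 509 and 391 with LPS and 1904, 3079 and 3586 untreated.

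HELLS, a chromatin remodeller of the SNF2 family (PH_hs_0011979), had levels of 5.51, 5.89 and 6.29 with PBD150 plus LPS, 6.90, 5.47 and 4.94 with LPS and 9.59, 9.59 and 9.53 untreated. The LPS cultures had an SD of 1.02, with LPS replicate 1 highest, against an SD of 0.04 in untreated cultures, and no treated culture reached an untreated one. HELLS was 12.8-fold lower with PBD150 plus LPS (-3.67 ± 0.46, limma adjusted p = 0.00062) and 13.9-fold lower with LPS (-3.80 ± 0.46, adjusted p = 0.000635). On 1 of the 9 LPS arrays it was not above noise. Without LPS replicate 1 the LPS difference from untreated was -2.54 for DNMT1, -2.96 for UHRF1 and -4.36 for HELLS. The DNMT1, UHRF1 and HELLS calls held under all 17 alternative settings in both comparisons, with the largest adjusted p at 0.017 for DNMT1, 0.00223 for UHRF1 and 0.00408 for HELLS.

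**Figure D1:**
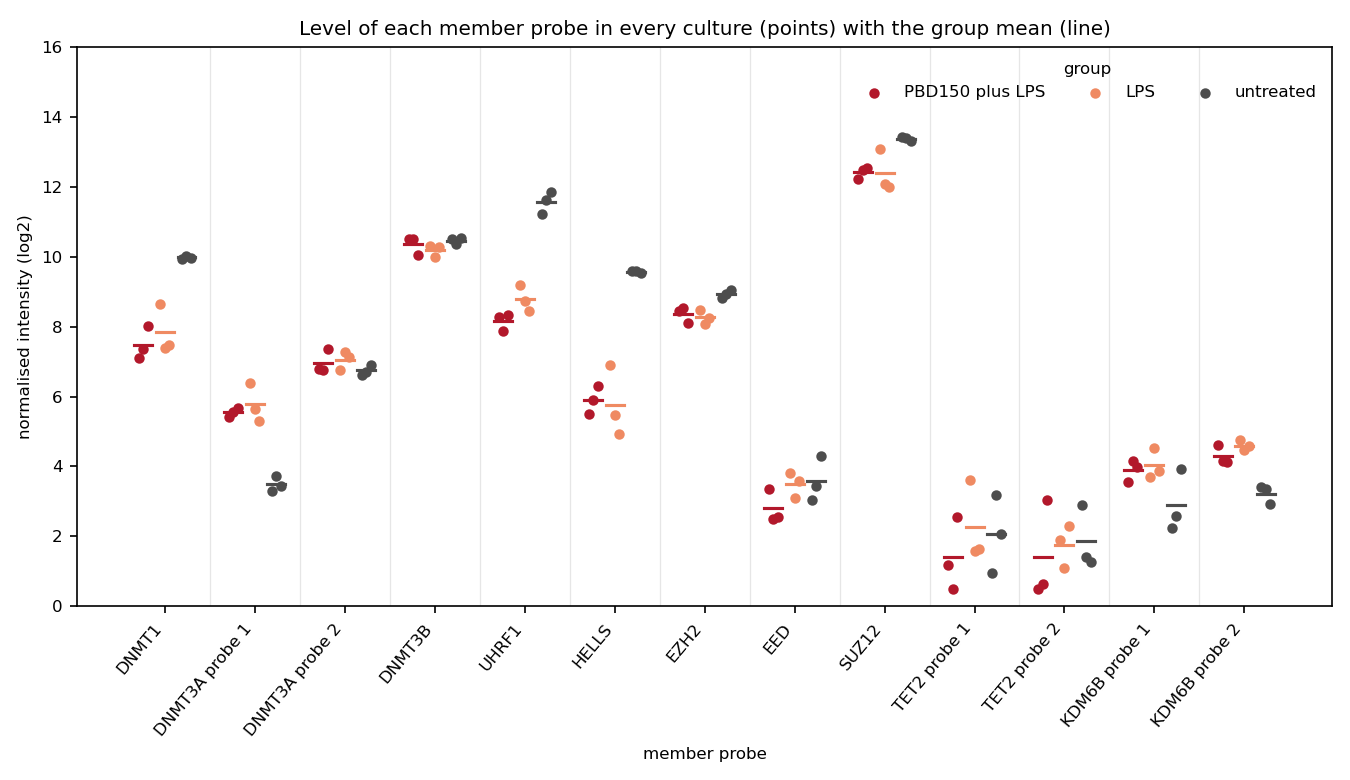
Log2 normalised intensity of the 13 member probes, 1 point for each culture and a line at the mean of the 3 cultures of a group; heights compare groups within a probe only. DNMT1, UHRF1 and HELLS sit lower in all treated cultures than in untreated ones, while DNMT3A probe 1 and KDM6B probe 2 sit higher.

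No probe of the methyltransferases that place new methylation showed a fall past the threshold. DNMT3B (PH_hs_0013311) was at 10.51, 10.51 and 10.05 in PBD150 plus LPS cultures, 10.30, 9.99 and 10.27 in LPS cultures and 10.51, 10.36 and 10.52 in untreated cultures. Its LPS values were all under the untreated ones but close to them, and neither difference passed (PBD150 plus LPS against untreated -0.11, adjusted p = 0.733; LPS against untreated -0.28, adjusted p = 0.372, by limma). The 95% interval ran from -0.56 to 0.35 with PBD150 plus LPS and from -0.73 to 0.18 with LPS, so a fall of the size seen for DNMT1 lay outside both. Over the 17 alternative settings the LPS difference ran from -0.44 to 0.03, and none passed.

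The 2 probes of DNMT3A gave different pictures. Probe 1 (PH_hs_0012957) was at 5.42, 5.56 and 5.67 with PBD150 plus LPS, 6.39, 5.63 and 5.31 with LPS and 3.30, 3.73 and 3.45 untreated. All treated cultures were above all untreated ones, and the rise was 4.17-fold with PBD150 plus LPS (2.06 ± 0.28, limma adjusted p = 0.00105) and 4.87-fold with LPS (2.29 ± 0.28, adjusted p = 0.000741). Untreated cells had this probe above noise on 3 of 9 arrays, against 9 of 9 in each treated group, so the size of its rise is uncertain. On a log2(value + 16) scale, which damps dim values, the differences were 1.17 with PBD150 plus LPS and 1.35 with LPS, and both still passed.

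Probe 2 of DNMT3A (PH_hs_0032270), above noise on every array, was at 6.78, 6.77 and 7.36 with PBD150 plus LPS, 6.75, 7.27 and 7.13 with LPS and 6.63, 6.71 and 6.91 untreated. The groups overlapped, and neither difference passed (0.22 with adjusted p = 0.534 for PBD150 plus LPS, 0.31 with adjusted p = 0.407 for LPS, by limma). For LPS against untreated the 95% interval of probe 1 was 1.64 to 2.93 and that of probe 2 was -0.23 to 0.84. Which DNMT3A transcripts each probe reads is not given in the sources used here, so no single direction is given for the gene.

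Of the PRC2 core, EZH2 and SUZ12 had lower values by smaller amounts, near the threshold of the test. SUZ12, the scaffold subunit (PH_hs_0023866), was at 12.22, 12.48 and 12.55 with PBD150 plus LPS, 13.08, 12.08 and 11.98 with LPS and 13.42, 13.39 and 13.32 untreated. All treated cultures were below the untreated ones, and LPS replicate 1 lay nearest to them. SUZ12 was 1.95-fold lower with PBD150 plus LPS (-0.96 ± 0.29, limma adjusted p = 0.0418) and 1.99-fold lower with LPS (-0.996 ± 0.29, adjusted p = 0.0411). The PBD150 plus LPS call held in 7 of 17 alternative settings and the LPS call in 5. Without LPS replicate 1 the LPS difference was -1.35 (adjusted p = 0.0017). On the intensities as deposited it was -0.63 (adjusted p = 0.208), where LPS replicate 1 had 10860 units, against 8373 to 10310 in untreated cultures.

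EZH2, the catalytic subunit (PH_hs_0025941), was at 8.44, 8.54 and 8.11 with PBD150 plus LPS, 8.48, 8.09 and 8.24 with LPS and 8.82, 8.93 and 9.06 untreated. Again no treated culture reached an untreated one. The LPS difference of -0.66 ± 0.20 passed (limma adjusted p = 0.0429, 1.58-fold lower), and the PBD150 plus LPS difference of -0.57 ± 0.20 did not (adjusted p = 0.0659). PBD150 plus LPS differed from LPS by 0.09 (95% interval -0.36 to 0.54). Of 17 alternative settings, 8 kept the LPS call and 6 brought the PBD150 plus LPS difference past the threshold. As deposited the LPS difference was -0.33 (adjusted p = 0.332).

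EED, the subunit that binds the mark PRC2 makes (PH_hs_0026886), was near the noise limit. Its levels were 2.51 to 3.35 with PBD150 plus LPS, 3.10 to 3.82 with LPS and 3.03 to 4.29 untreated, and the groups overlapped. The probe was above noise on 2 of 9 arrays with PBD150 plus LPS, 2 of 9 with LPS and 4 of 9 untreated. Neither treated group passed against untreated (-0.78 with adjusted p = 0.169 for PBD150 plus LPS, -0.08 with adjusted p = 0.904 for LPS, by limma), and a change in EED was not detectable at this signal.

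Among the erasers, TET2 gave no usable level. Its probes (PH_hs_0017506 and PH_hs_0040519) were each above noise on 1 of 9 arrays with PBD150 plus LPS and 1 of 9 with LPS, and on 1 and 0 of 9 untreated arrays. No TET2 difference passed, and no fold is given. KDM6B, the demethylase that opposes PRC2, had higher values with LPS on both probes, and 1 probe passed.

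Probe 2 of KDM6B (PH_hs_0039865) was at 4.61, 4.14 and 4.12 with PBD150 plus LPS, 4.75, 4.47 and 4.58 with LPS and 3.40, 3.36 and 2.91 untreated. The treated cultures all lay above the untreated ones, by a log2 difference of 1.07 ± 0.22 with PBD150 plus LPS (limma adjusted p = 0.00838) and 1.37 ± 0.22 with LPS (adjusted p = 0.00281). It was above noise on 6 of 9 arrays with PBD150 plus LPS, 8 of 9 with LPS and 1 of 9 untreated, so the untreated level was hardly measured and no fold is given. On a log2(value + 16) scale the rises were 0.51 with PBD150 plus LPS and 0.61 with LPS. In a fit to the 27 single arrays, with cultures as a random block, both calls were lost (limma adjusted p = 0.137 for PBD150 plus LPS and 0.0549 for LPS).

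Probe 1 of KDM6B (PH_hs_0035516) was at 3.57, 4.14 and 3.98 with PBD150 plus LPS, 3.69, 4.54 and 3.88 with LPS and 2.23, 2.58 and 3.92 untreated. Untreated replicate 3 reached into the treated range, and neither difference passed (0.99 with adjusted p = 0.136 for PBD150 plus LPS, 1.13 with adjusted p = 0.106 for LPS, by limma). Without that culture the difference was 1.49 with PBD150 plus LPS (adjusted p = 0.0176) and 1.63 with LPS (adjusted p = 0.0143). The probe was above noise on 4 of 9 arrays with PBD150 plus LPS, 5 of 9 with LPS and 2 of 9 untreated.

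**Figure D2:**
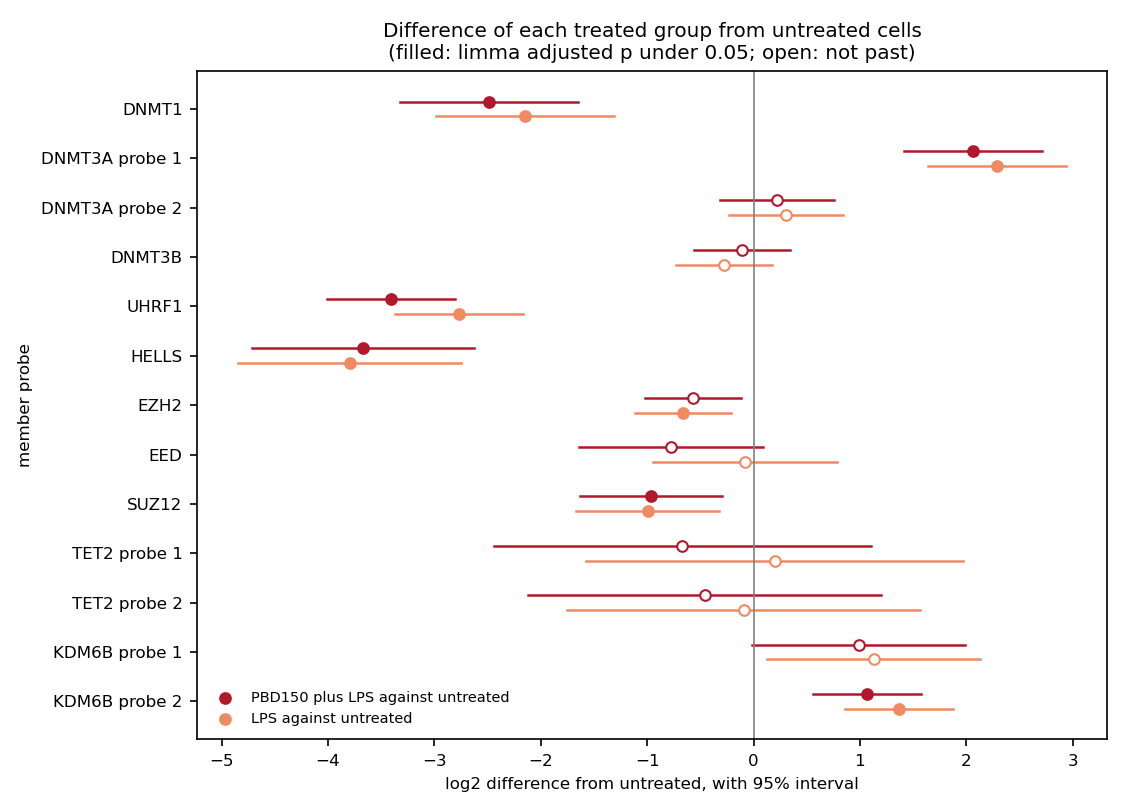
Log2 difference of each treated group from untreated cells for the 13 member probes, with 95% intervals; filled points passed at a limma adjusted p under 0.05. DNMT1, UHRF1 and HELLS lie furthest to the left in both comparisons, from -2.14 to -3.80, and the 2 DNMT3A probes lie apart.

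Counted over the 13 probes, PBD150 plus LPS against untreated had 2 higher, 4 lower and 7 not past the threshold, where 12.6% of all probes were higher and 13.5% lower. LPS against untreated had 2 higher, 5 lower and 6 not past, where 10.6% of all probes were higher and 11.8% lower. The median member difference was -0.57 with PBD150 plus LPS and -0.09 with LPS, against 0.11 and 0.08 over all probes in the same comparisons. Both comparisons share the untreated cultures, so the values in one are not independent of those in the other.

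The second question was whether PBD150 changed any of these genes in LPS-treated cells. No member passed, and neither did any other probe, since limma called 0% of 30968 probes with a smallest adjusted p of 0.414. Among the 13 members the smallest adjusted p was 0.906. At an unadjusted p under 0.05 there was 1 member, against 1582 of all probes. A fit to the 27 single arrays, with cultures as a random block, called 14 probes, 1 higher and 13 lower, none of them a member.

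UHRF1 was that member. Its PBD150 plus LPS cultures, at 7.87 to 8.33, were all under its LPS cultures, at 8.46 to 9.19. The log2 difference was -0.64 ± 0.26 (95% interval -1.24 to -0.04, limma adjusted p = 0.906), and it was -0.44 without LPS replicate 1. This was the 1 member of 13 with all 3 cultures below all 3, as were 4.29% of all probes. The reverse order was found for 0 members and 3.69% of all probes.

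UHRF1, at -0.64, is given above, and the probes of EED and TET2 were near or under the noise limit. The other 9 probes differed between PBD150 plus LPS and LPS by -0.35 to 0.17. DNMT1 was at -0.35 (95% interval -1.18 to 0.49), which leaves out a doubling but not a halving. HELLS was at 0.12 (-0.92 to 1.17), which leaves out a halving but not a doubling. Both values rested on LPS replicate 1. Without it DNMT1 turned to 0.05 and HELLS was at 0.69, and neither passed. The interval excluded both a doubling and a halving for 6 probes, those of DNMT3A (both), DNMT3B, EZH2, SUZ12 and KDM6B probe 2. KDM6B probe 2 was itself near the noise limit, above it on 6 of 9 arrays with PBD150 plus LPS and 8 of 9 with LPS. For this probe the interval covers the measured signal, and a doubling or a halving of its RNA cannot be called excluded. SUZ12 differed by 0.03 (-0.64 to 0.71), or by 0.38 without LPS replicate 1, and KDM6B probe 2 by -0.31 (-0.81 to 0.20). The intervals use 1 spread for all groups, which includes the more uniform untreated cultures, so some may be too narrow.

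**Figure D3:**
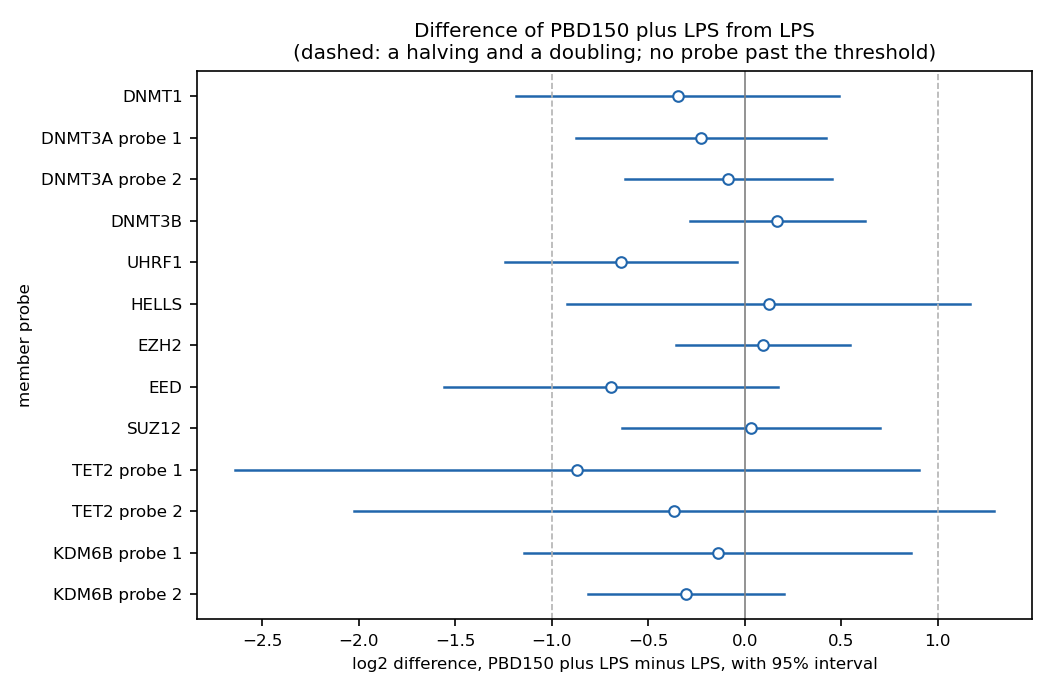
Log2 difference between PBD150 plus LPS and LPS for the 13 member probes, with 95% intervals; dashed lines mark a halving (-1) and a doubling (1). None passed the threshold, and UHRF1, at -0.64, is the probe whose interval leaves out 0.

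The members were then set beside genes of the same pathways, each represented by its brightest probe. Over all probes, which include dim and unnamed ones, 12.6% were higher and 13.5% lower with PBD150 plus LPS. With LPS 10.6% were higher and 11.8% lower. Of 11 measured partners of the DNA methylation enzymes, 6 fell and 1 rose with PBD150 plus LPS, and 5 fell and 1 rose with LPS. CDCA7, the partner that recruits HELLS to chromatin, differed by -2.98 with PBD150 plus LPS and by -2.63 with LPS (limma adjusted p = 0.000141 and 0.000293). PCNA differed by -1.69 with PBD150 plus LPS and -1.44 with LPS, and the same probe is counted again among the proliferation genes below. LIG1, the ligase that seals new DNA strands, differed by -2.03 with PBD150 plus LPS and -1.93 with LPS. DMAP1, a DNMT1-binding protein, rose by 0.95 with PBD150 plus LPS and 1.00 with LPS.

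The methyl donor cycle, which makes the S-adenosylmethionine that all these methyltransferases use, fell in 8 of 9 measured genes with PBD150 plus LPS and 7 of 9 with LPS. The median difference was -1.29 with PBD150 plus LPS and -0.96 with LPS, against 0.11 and 0.08 over all probes. All probes include dim ones, while these 9 genes were all at or above the median probe. MAT2A, which makes S-adenosylmethionine, differed by -1.83 with PBD150 plus LPS and -1.81 with LPS. AHCY, which clears the product of methylation, differed by -1.94 with PBD150 plus LPS and -1.80 with LPS, and MTHFD1, a folate enzyme, by -2.47 with PBD150 plus LPS and -2.15 with LPS. On the values as deposited 4 of the 9 passed in each comparison.

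Genes that oxidise or repair methylated cytosine gave 4 higher and 1 lower of 10 in each comparison. GADD45B, a stress gene linked to DNA demethylation, rose by 0.93 with PBD150 plus LPS and by 0.99 with LPS, and SMUG1, a DNA glycosylase, rose by 0.96 with PBD150 plus LPS and 0.83 with LPS. APEX1, which cuts DNA at sites without a base, was lower (-1.52 with PBD150 plus LPS and -1.34 with LPS). With median centring 1 of the 4 rises was left in each comparison, and with the replicate block 2 of the 4 LPS rises. Of 9 methyl-CpG readers 0 passed with PBD150 plus LPS, and 1 rose with LPS, MBD5, which was above noise on 6 of 27 arrays.

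Of 9 partners of PRC2, 4 fell and 3 rose with PBD150 plus LPS, and 4 fell and 2 rose with LPS. RBBP4, a histone-binding core subunit, differed by -1.60 with PBD150 plus LPS and -2.01 with LPS, and MTF2, a Polycomb-like accessory subunit, by -1.45 with PBD150 plus LPS and -1.35 with LPS. PHF1, another Polycomb-like subunit, rose by 1.44 with PBD150 plus LPS and 1.39 with LPS, and JARID2, which helps PRC2 onto DNA, by 1.11 with PBD150 plus LPS and 0.98 with LPS. On the values as deposited 2 fell and 3 rose with LPS.

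Of 18 subunits of Polycomb repressive complex 1, which acts beside PRC2, 10 fell and 2 rose with PBD150 plus LPS, and 8 fell and 2 rose with LPS. BMI1, a core subunit, differed by -1.57 with PBD150 plus LPS and -1.41 with LPS and SCML2 by -2.45 with PBD150 plus LPS and -2.34 with LPS, while CBX7, a reader of the PRC2 mark, rose by 1.61 with PBD150 plus LPS and 1.63 with LPS. As deposited 6 fell with PBD150 plus LPS and 4 with LPS. Of 16 genes that act against Polycomb, 6 fell with PBD150 plus LPS and 5 with LPS, and 0 rose. On the values as deposited 3 fell with PBD150 plus LPS, and 2 fell and 1 rose with LPS. KMT2C, counted among the falls and named after its values were seen, was above noise on 6 of 27 arrays. WDR5, a shared subunit of activating histone methyltransferases, differed by -1.99 with PBD150 plus LPS and -1.77 with LPS.

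Other histone demethylases were split, with 2 higher and 4 lower of 16 with PBD150 plus LPS and 3 higher and 4 lower with LPS. One of the 4 falls in each comparison was PHF8, named after its values were seen, whose probe was above noise on 0 of 27 arrays, so 3 falls had a signal. With median centring 1 of the 3 LPS rises was left. RIOX2 differed by -1.97 with PBD150 plus LPS and -1.90 with LPS, and RIOX1 by -2.18 with PBD150 plus LPS and -2.52 with LPS. KDM2A rose by 1.49 with PBD150 plus LPS and 1.22 with LPS and KDM4B by 1.01 with PBD150 plus LPS and 0.92 with LPS. Of 18 other histone methyltransferases 5 fell with PBD150 plus LPS and 4 with LPS, and 0 rose. SUV39H1, which marks heterochromatin, differed by -2.01 with PBD150 plus LPS and -1.80 with LPS, and PRMT5, an arginine methyltransferase, by -2.43 with PBD150 plus LPS and -1.86 with LPS.

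Genes known as Polycomb targets in blood cells gave 2 higher and 0 lower of 11 with PBD150 plus LPS, and 2 higher and 2 lower with LPS. The inhibitor of cell cycle kinases CDKN2B rose by 3.23 with PBD150 plus LPS and 3.44 with LPS (limma adjusted p = 0.0015 and 0.00128), and HOXA7 by 1.17 with PBD150 plus LPS and 1.25 with LPS. CDKN2A, another inhibitor that Polycomb silences in many cells, was at -0.93 with PBD150 plus LPS, not past the threshold, and at -1.22 with LPS, which passed. Without LPS replicate 1 neither LPS fall in this list passed.

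**Figure D4:**
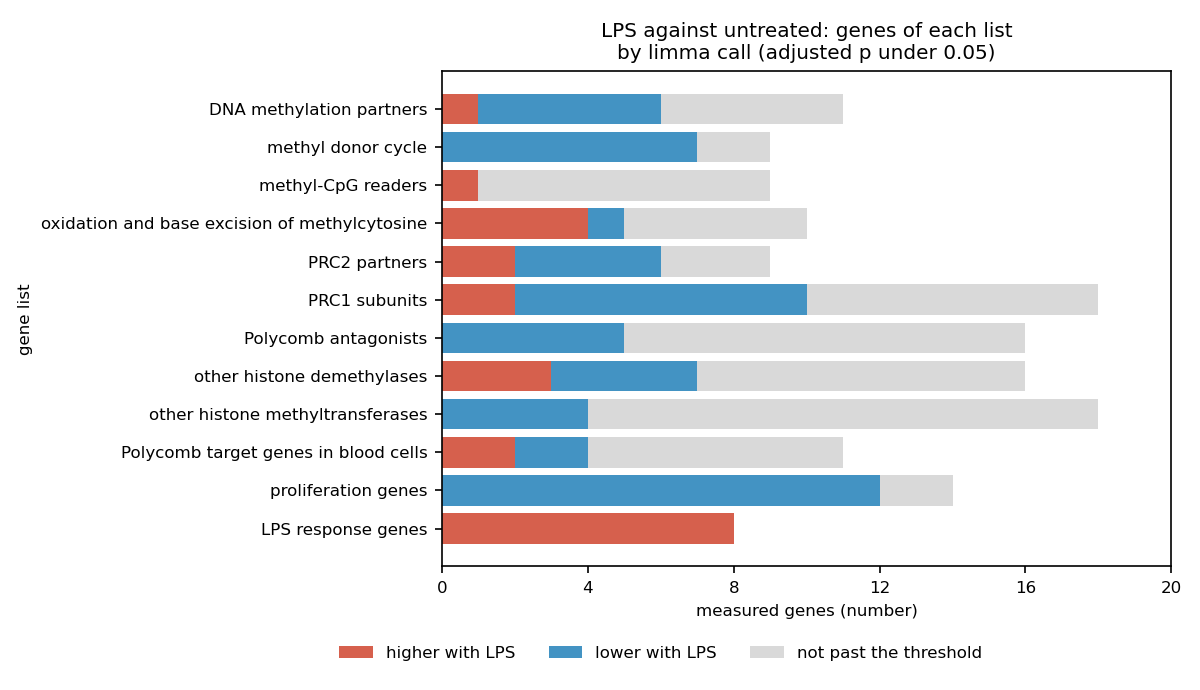
Number of measured genes in each list that were higher, lower or not past the threshold in LPS against untreated (limma adjusted p under 0.05). Falls outnumber rises in the methyl donor cycle (7 and 0), Polycomb repressive complex 1 (8 and 2) and proliferation genes (12 and 0). They also do so in DNA methylation partners (5 and 1), PRC2 partners (4 and 2) and Polycomb antagonists (5 and 0). The same holds for other histone methyltransferases (4 and 0) and other histone demethylases (4 and 3). All 8 LPS response genes rose. PCNA is counted as a fall in both DNA methylation partners and proliferation genes.

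Genes of dividing cells were measured beside the members that fell. Of 14 measured proliferation genes 12 fell in both comparisons, with median differences of -2.52 for PBD150 plus LPS and -2.35 for LPS. The other 2, named after their values were seen, were E2F1 and MCM5. E2F1 was at 0.08 with PBD150 plus LPS and -0.20 with LPS (limma adjusted p = 0.880 and 0.683). The probe of MCM5 was above noise on 0 of 27 arrays. Per culture their median difference from the untreated mean was -2.32, -2.53 and -2.71 with PBD150 plus LPS and -1.82, -2.52 and -2.38 with LPS. The median of the 5 members lower with LPS was -2.89, -2.62 and -1.96 with PBD150 plus LPS and -1.34, -2.59 and -2.50 with LPS. In every treated culture the median of these members was the value of DNMT1. LPS replicate 1 had the smallest shift in both medians. With PBD150 plus LPS, replicate 3 had the smallest shift in the median of the members and the largest in that of the proliferation genes. That replicate was highest in DNMT1, UHRF1, HELLS and SUZ12 but lowest in EZH2 (8.44, 8.54 and 8.11), so the members had no common order. In the 8 genes of the LPS response LPS replicate 1 stood at 4.63, against 4.73 and 4.84 in the other LPS cultures and 4.68 to 4.86 with PBD150 plus LPS. The part that proliferation has in the members' differences was not tested.

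Markers of other cell types were measured beside these. Of 10 T or NK cell markers 2 rose with each treatment, with summed intensities of 31400 to 32400 with PBD150 plus LPS, 31900 to 39700 with LPS and 16200 to 18300 untreated. NKG7, which rose by 0.97 with PBD150 plus LPS and 1.08 with LPS, made up most of that sum in every group. The sum over 4 B cell markers was 530 to 644 with PBD150 plus LPS, 557 to 786 with LPS and 1090 to 1150 untreated. In that list CD79A fell with both treatments (-1.43 with PBD150 plus LPS, -1.40 with LPS), while MS4A1 rose with LPS (1.14, limma adjusted p = 0.0185) and was at 0.35 with PBD150 plus LPS, not past the threshold. For 7 granulocyte markers the sum was 37800 to 44200 with PBD150 plus LPS, 41700 to 46100 with LPS and 76100 to 78500 untreated, most of it from ELANE in every group. ELANE (-0.95 with PBD150 plus LPS, -0.85 with LPS) and PRTN3 (-4.02 with PBD150 plus LPS, -3.63 with LPS) fell, CAMP rose by 3.39 with PBD150 plus LPS and 3.23 with LPS, and 4 of the 7 did not pass in either comparison. The 7 epithelium or fibroblast markers had 781 to 914 with PBD150 plus LPS, 587 to 901 with LPS and 421 to 504 untreated, and COL3A1 was under the noise limit on all treated arrays. For 3 erythroid or platelet markers the sum was 52500 to 66000 with PBD150 plus LPS, 23600 to 66100 with LPS and 825 to 884 untreated, and PPBP, a chemokine known from platelets, made up nearly all of it in the treated groups (log2 difference 6.99 for PBD150 plus LPS and 6.55 for LPS). Their part in the members' differences was not tested.

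Over the 9 cultures, the genes with levels most like those of DNMT1 were RAB32 (Pearson r = 0.9971), SLC35A3 (r = 0.9968) and UBE2N (r = 0.9965), among 9265 genes at or above the median probe. For EZH2 they were RPUSD4 (0.975), ARHGEF39 (0.968) and PPAT (0.968), and for KDM6B probe 2 FNBP1L (0.978), HSPA5 (0.977) and SNAP23 (0.975). The coefficients are descriptions: cultures of a group share their treatment, and treated and untreated cultures of DNMT1 lie apart, so any gene with the same contrast has a high r. For TET2, whose probe is at the noise limit, the same rule picked TRAM1, MDH2 and TBCC.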

How the data were processed

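RNA (2.5 µg per sample) was amplified, labelled with Cy5 and hybridised to Phalanx Human OneArrays (1 colour), per the labels' protocols. The deposited values are linear spot intensity values with some below 0; how the authors scanned, background-corrected or scaled them is not given in the sources used here. They were floored at 1, set on a log2 scale from the deposited intensities and quantile normalised over 27 arrays, and the 3 arrays of a culture were averaged. Of 30968 probes, 17397 had a symbol, and 2645 symbols were updated through RefSeq. limma 3.58.1 (R 4.3.3) fitted group means over 9 cultures, two-sided, with Benjamini-Hochberg adjustment over all probes at 0.05. The procedure was tested on simulated data. Members and lists were chosen with earlier results of these data known. The text may name every member, up to 4 genes of a list by smallest p for LPS against untreated, and the 3 genes most like DNMT1, EZH2, TET2 and KDM6B. Alternatives were the intensities as deposited, median centring, an offset of 16, no dimmest 25% of probes, a random culture block, the replicate block, array weights, only the groups compared, and each culture left out. Array number limits the precision.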

Additional observations from a re-analysis of the deposited data

How the results depend on the processing

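No called member difference changed sign under the 17 alternatives run. Over members and settings (16 for EED and TET2, which the filter on dim probes removes), 22 LPS calls were lost and 1 gained, 11 PBD150 plus LPS calls against untreated were lost and 7 gained, and PBD150 plus LPS against LPS gained 0. Of the members, 5 fell with LPS, against 3 as deposited, 3 with the replicate block and 3 to 5 with 1 culture left out. With 1 culture left out 2 to 3 member probes, always of DNMT3A and KDM6B, rose with each treatment and 3 to 5 fell with PBD150 plus LPS. The 27 arrays with a random block gave 1 member higher with PBD150 plus LPS and 1 with LPS, against 2 and 2, and in PBD150 plus LPS against LPS 1 probe higher and 13 lower, against 0 and 0.

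Over all probes, array weights gave 6373 higher with PBD150 plus LPS, against 3887. LPS gave 5935 higher and 2205 lower as deposited and 5458 and 5552 with array weights, against 3292 and 3664. With 1 culture left out LPS gave 2415 to 4160 lower, fewest without untreated replicate 2. Values as deposited shift the median of all probes to 0.31 for PBD150 plus LPS and 0.41 for LPS, so the members' falls are smaller and their rises larger there. Deviations of cultures with the same replicate number had r of -0.51 to 0.118. The labels do not say what that number marks, and these r values cannot tell whether the cultures were paired. Under the replicate block EZH2 (limma adjusted p = 0.102) and SUZ12 (0.0792) lost the LPS call. SUZ12 also lost the PBD150 plus LPS call (0.0786).

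List counts under 5 settings were added after seeing the data. As deposited, LPS falls were 4 in the methyl donor cycle (7 otherwise), 4 in Polycomb repressive complex 1 (8), 2 in PRC2 partners (4), 2 in genes against Polycomb (5) and 0 in Polycomb targets (2), and 2 other histone methyltransferases rose (0). Median centring left 1 of 4 rises in oxidation and repair with each treatment and 1 of 3 LPS rises in other demethylases. Array weights gave 8 falls in methylation partners (5). The median of Polycomb targets with LPS turned from -0.18 to 0.13 as deposited, and that of other demethylases from 0.04 to -0.12 with median centring. Proliferation genes gave 12 falls in every setting. Signal over noise limits EED, TET2, KDM6B and untreated DNMT3A probe 1.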
